A study of Mus musculus with 8 samples.

Results

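The HOX genes encode homeodomain transcription factors and lie in 4 clusters, Hoxa, Hoxb, Hoxc and Hoxd. They were taken as every row of the count tables whose symbol is Hoxa, Hoxb, Hoxc or Hoxd followed by a number, which gave 39 of 23420 gene symbols. Values are given for 38 of these, 10, 10, 9 and 9 genes in the respective clusters. RNA-seq was performed on mouse embryonic stem cells (mESCs) of a mixed 129 x C57BL/6 background, derived from day 5 preimplantation blastocysts and grown without feeders in medium with LIF, a cytokine that maintains pluripotency. The cells were wild type (IPO13+/+) or lacked importin 13 (IPO13-/-), a carrier that moves proteins into and out of the nucleus. They were left untreated or exposed to 125 µM H2O2 for 1 h and allowed to recover for 2 h. Each of the 4 groups had 2 libraries. The questions were which HOX transcripts could be measured in these cells, which changed with oxidative stress in each genotype, and which differed between the genotypes.

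Within each cluster, the genes are numbered from paralog group 1 at the 3′ end to group 13 at the 5′ end. In the embryo they are switched on in that order in time and along the body axis, and they give each level of the axis its identity. In pluripotent cells the clusters are known to be held nearly silent by Polycomb complexes. The proteins bind DNA through the homeodomain, often with partners of the Pbx and Meis families.

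The libraries held 60397877 to 73789079 counted reads. At that depth 3 counts, the lowest number told from 0, corresponded to 0.0407 to 0.0497 CPM, the count scaled to the library total. Replicates differed by more than sampling noise, with a chi-square statistic per gene of 2.27 to 15.02 where sampling noise alone gives 1. The labels do not say whether replicates were separate cultures, so p-values measure only the spread between these libraries. They also do not say how many lines stand behind a genotype, so genotype and cell line cannot be told apart. *Ipo13* had 1555 to 1965 counts in the 4 IPO13-/- libraries and 4716 to 4928 in the 4 IPO13+/+ libraries, so the transcript was reduced and still present. The summed level of 12 pluripotency markers, among them *Pou5f1* and *Nanog*, was 6525 to 7851 CPM in the 8 libraries, and none of the 12 was at 0. Markers of other cells were also present at lower summed levels. These were 141 to 177 CPM for 10 neural genes, 53.6 to 90.5 CPM for 10 extraembryonic genes, 14.4 to 25.6 CPM for 9 mesoderm genes, 11.1 to 13.5 CPM for 14 fibroblast genes and 3.14 to 4.04 CPM for 6 endoderm genes. No marker of these lists was at 0 in every library. In bulk RNA, fewer cells that express a gene and less RNA per cell cannot be told apart, and this applies to every HOX value given here.

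The HOX genes that passed a test belong to paralog group 1 (*Hoxd1*), group 9 (*Hoxb9*) and group 13 (*Hoxb13*, *Hoxc13* and *Hoxd13*). Their homeobox sequences were compared. The homeobox is the 180-base stretch that encodes the DNA-binding homeodomain. It is printed for 4 of the 5 genes that passed a test, 5′ to 3′ on the coding strand, from GENCODE M21 transcripts on GRCm38. Capitals mark bases 142 to 159, which encode the conserved core of the helix that enters the major groove of DNA.
Hoxb9: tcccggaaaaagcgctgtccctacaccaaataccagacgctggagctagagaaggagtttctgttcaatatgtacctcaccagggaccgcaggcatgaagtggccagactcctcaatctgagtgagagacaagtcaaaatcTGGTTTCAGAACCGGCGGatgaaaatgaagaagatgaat
Hoxb13: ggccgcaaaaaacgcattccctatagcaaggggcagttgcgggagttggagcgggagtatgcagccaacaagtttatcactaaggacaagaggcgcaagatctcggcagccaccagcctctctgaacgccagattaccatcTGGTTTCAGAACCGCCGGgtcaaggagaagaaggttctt
Hoxc13: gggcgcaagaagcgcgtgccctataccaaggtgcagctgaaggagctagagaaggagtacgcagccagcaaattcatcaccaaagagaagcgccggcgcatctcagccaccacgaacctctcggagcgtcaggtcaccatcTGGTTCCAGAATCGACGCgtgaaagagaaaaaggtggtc
Hoxd13: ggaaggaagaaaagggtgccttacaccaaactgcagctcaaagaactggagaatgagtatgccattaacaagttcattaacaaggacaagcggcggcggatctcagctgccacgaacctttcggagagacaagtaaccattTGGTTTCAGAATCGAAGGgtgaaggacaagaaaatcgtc

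*Hoxc13* shared 135 of the 180 bases (75.0%) with *Hoxd13* and 133 (73.9%) with *Hoxb13*, both of its own paralog group, whereas it shared 103 (57.2%) with *Hoxb9*. The closest pair among the 38 genes was *Hoxa3* and *Hoxb3* with 169 bases (93.9%). No stretch of 100 bases, the read length, from any transcript of the 38 genes was found in a transcript of a gene that does not overlap it, so reads of a HOX gene had no identical full-length match at another gene. Overlap on the same locus is a separate matter, because the strand used for counting is not given in the sources used here. The share of exon bases that also belong to another gene was 62.8% for *Hoxd3*, 52.9% for *Hoxb3* and 52.3% for *Hoxd4*. It was 0% for *Hoxb9*, *Hoxb13*, *Hoxc13*, *Hoxd1* and *Hoxd13*.

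The HOX genes were nearly silent as a family. The 38 genes together had 326 to 600 counts per library and 3817 counts in all 8. *Hoxa6* and *Hoxd3* had 0 counts in every library. In a single library, 0 counts allow a level of up to 0.0407 to 0.0497 CPM, counting error only, and the 8 libraries together allow less. A further 9 genes stayed below 3 counts in every library. They were *Hoxa9*, *Hoxb1*, *Hoxb2*, *Hoxb3*, *Hoxb5*, *Hoxb6*, *Hoxc5*, *Hoxc8* and *Hoxd12*, with 1 to 8 counts each over all libraries. Another 19 genes were at 3 or more in some libraries and below 3 in others, and 8 genes had 3 or more counts in all 8. Only 4 of these, *Hoxb9*, *Hoxc4*, *Hoxc13* and *Hoxd13*, had 10 or more in all 8. Between 15 and 21 genes per library reached 3 counts, and 7 to 13 were at 0.

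The clusters differed in how many of their genes could be measured. In Hoxa, whose genes given here span 98.5 kb of chromosome 6 (52162417 to 52260880, GRCm38), 2 of 10 genes stayed below 3 counts in all libraries, 5 were mixed and 3 (*Hoxa7*, *Hoxa10* and *Hoxa13*) had 3 or more throughout. In Hoxb, 174 kb of chromosome 11 (96194316 to 96368256), 5 of 10 genes stayed below 3 and only *Hoxb9* and *Hoxb13*, at the 5′ end, had 3 or more throughout. In Hoxc, 116 kb of chromosome 15 (102921103 to 103036852), 2 of 9 genes stayed below 3 and *Hoxc4* and *Hoxc13* had 3 or more throughout, so the 2 ends of the cluster were measured and the genes between them were mixed or below 3. In Hoxd, 96.8 kb of chromosome 2 (74668310 to 74765142), 2 of 9 genes stayed below 3 and *Hoxd13* alone had 3 or more throughout.

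**Figure D1:**
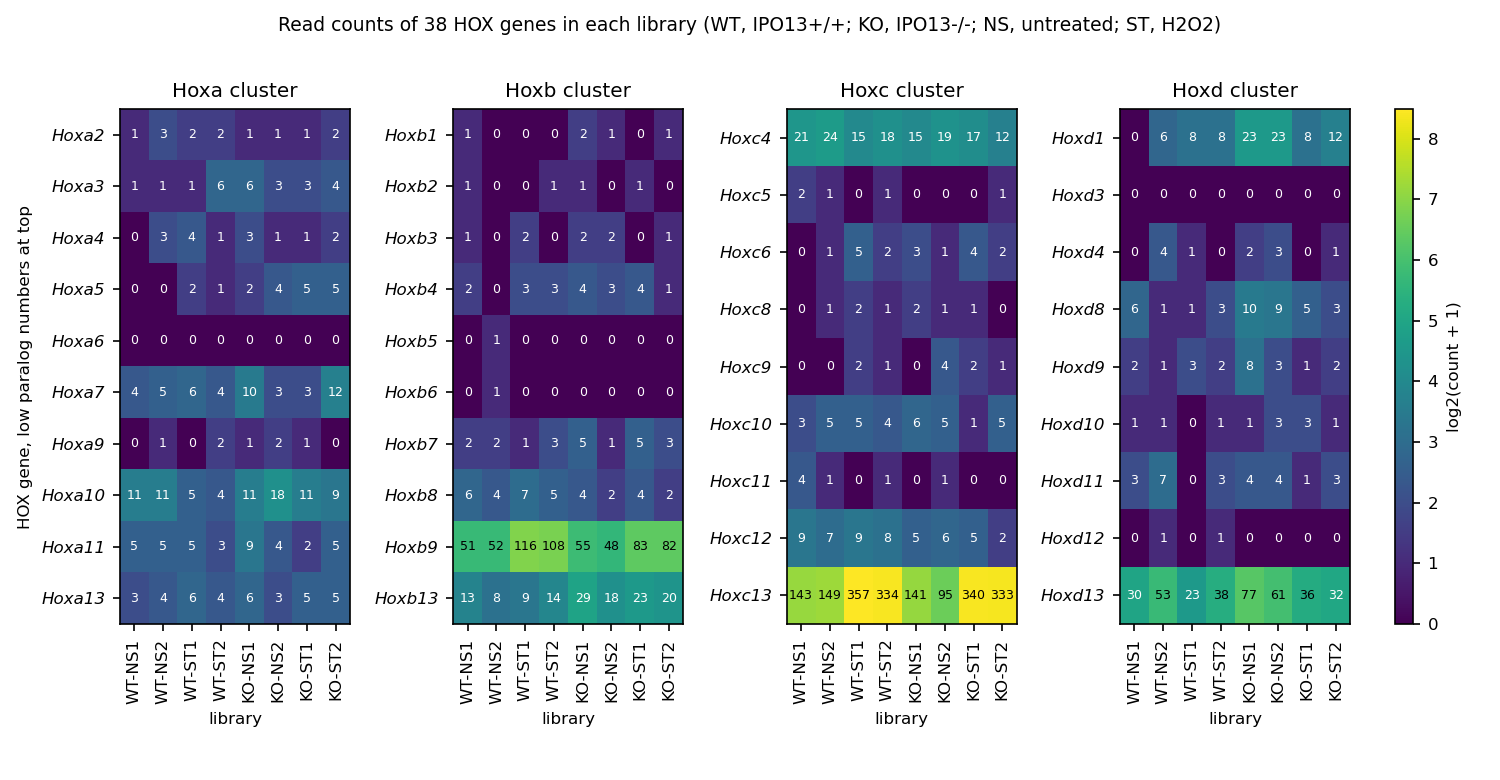
Read counts of 38 HOX genes (rows, by cluster, low paralog numbers at the top) in the 8 libraries (columns). Colour gives log2(count + 1) and the number in each cell is the count. *Hoxc13* and *Hoxb9* hold most of the counts, and *Hoxa6* and *Hoxd3* are at 0 throughout.

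A few genes made up most of the HOX signal. *Hoxc13* held 49.6% of the counts of the 38 genes, *Hoxb9* 15.6%, *Hoxd13* 9.17%, *Hoxc4* 3.69% and *Hoxb13* 3.51%. By cluster, Hoxc held 56.7%, Hoxb 21.6%, Hoxd 14.3% and Hoxa 7.34%. By paralog group, the 16 genes of groups 9 to 13 held 86.3%, the 11 genes of groups 1 to 4 held 8.65% and the 11 genes of groups 5 to 8 held 5.06%. Levels between genes were compared per kb of exon. The mean level over the 4 groups was 1.44 CPM per kb for *Hoxc13*, 0.431 for *Hoxb9*, 0.260 for *Hoxd13* and 0.113 for *Hoxb13*. *Hoxc4*, *Hoxc12* and *Hoxd1* followed at 0.102, 0.0915 and 0.0880 CPM per kb.

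The sum over the 38 genes was 5.03 ± 0.238 CPM (SD, n = 2 libraries, scaled with TMM factors) in untreated IPO13+/+ cells and 8.66 ± 0.230 CPM in treated IPO13+/+ cells. The sums were 5.79 ± 0.174 CPM in untreated and 9.01 ± 0.157 CPM in treated IPO13-/- cells. Both treated groups lay above the untreated group of their genotype in both libraries, and both IPO13-/- groups lay above the IPO13+/+ group of the same treatment. These sums follow the most abundant genes. Without *Hoxb9* and *Hoxc13* they were 2.15 ± 0.254, 1.98 ± 0.164, 3.35 ± 0.0276 and 2.39 ± 0.0323 CPM in the same order, and the treated groups were no longer above the untreated ones.

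The clusters moved in different ways. Hoxc went from 2.71 ± 0.0104 to 5.58 ± 0.320 CPM with treatment in IPO13+/+ cells and from 2.20 ± 0.103 to 5.74 ± 0.0288 CPM in IPO13-/- cells. Hoxb went from 1.06 ± 0.125 to 1.98 ± 0.0633 CPM and from 1.28 ± 0.0981 to 1.82 ± 0.0531 CPM. Hoxa was lowest, with 0.422 ± 0.0696 and 0.423 ± 0.0460 CPM in untreated and treated IPO13+/+ cells and 0.638 ± 0.0133 and 0.603 ± 0.154 CPM in IPO13-/- cells. Hoxd was highest in untreated IPO13-/- cells, at 1.68 ± 0.0402 CPM, against 0.841 ± 0.304 CPM in untreated IPO13+/+, 0.670 ± 0.199 CPM in treated IPO13+/+ and 0.854 ± 0.0276 CPM in treated IPO13-/- cells. No test was made of these sums.

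**Figure D2:**
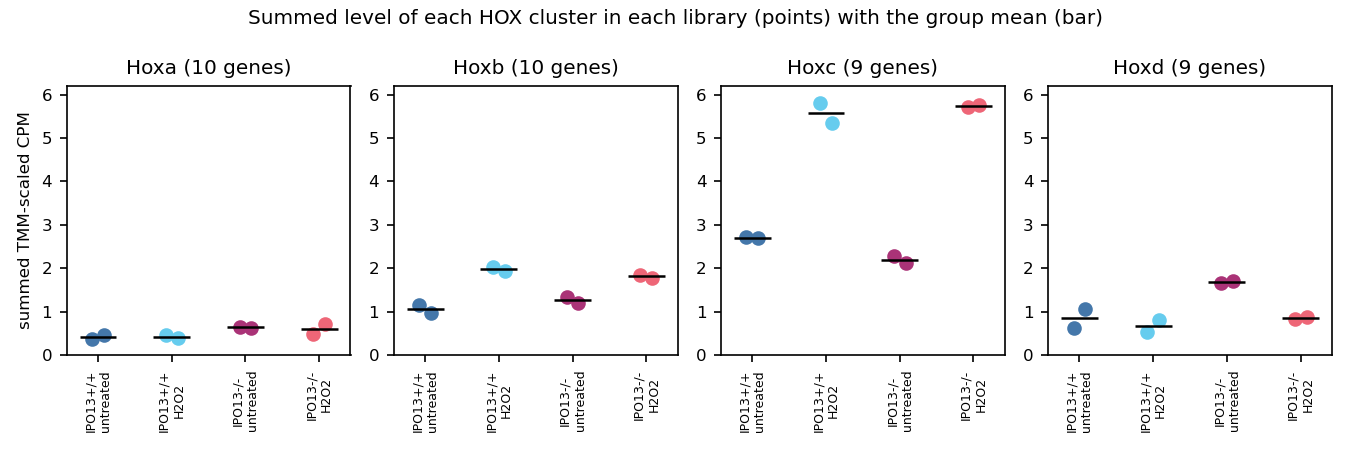
Summed TMM-scaled CPM of the genes of each HOX cluster (vertical axis) in the 4 groups (horizontal axis). Points are libraries and bars are means of 2 libraries. The treated libraries stand above the untreated ones in Hoxb and Hoxc, Hoxa stays below 1 CPM in all 8 libraries, and in Hoxd the untreated IPO13-/- libraries stand above the others.

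The quasi-likelihood test of edgeR was applied to single genes, in 1 model of all 8 libraries, over the 19424 genes with at least 1 count, of which 36 were among these HOX genes. A gene was called at a Benjamini-Hochberg FDR below 0.05 and a change of at least 2-fold. The comparisons share libraries, since each group enters both a comparison of treatment and a comparison of genotype, and their values are therefore given side by side. Permuting 2 libraries against 2 cannot reach an exact p below 0.333, so the tests rest on the spread that edgeR estimates across genes.

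*Hoxc13* and *Hoxb9* rose with H2O2 in both genotypes. In IPO13+/+ cells 2 of the 36 tested HOX genes (5.56%) were called, both higher, where 2.9% of all tested genes were called and 2.75% were called higher. *Hoxc13* alone was called in IPO13-/- cells, 1 of 36 (2.78%), where 2.89% of all tested genes were called and 2.52% were called higher. Without the fold limit, *Hoxb9* also rose and *Hoxd13* fell in IPO13-/- cells, which made 3 of 36 genes (8.33%) at an edgeR FDR below 0.05 against 29.4% of all tested genes. In IPO13+/+ cells the FDR alone gave the same 2 genes, against 25.3%. Both shares at the FDR alone lay below those of all genes. Depth limits this comparison, since 10 of the 36 had fewer than 10 counts over all libraries and only 7 passed a stricter filter on counts. The lower shares therefore do not show a weaker response of HOX genes. Over the 36 genes the log2 fold change had a median of 0.11 in IPO13+/+ and of -0.25 in IPO13-/- cells, where it was 0 over all tested genes. Some markers of other cells moved with H2O2 too. The summed level of the 14 fibroblast genes was 11.7 to 12.02 CPM in untreated and 12.9 to 13.5 CPM in treated IPO13+/+ libraries, and 11.1 to 12.3 CPM in untreated and 12.5 to 13.5 CPM in treated IPO13-/- libraries. None of the 14 was called with H2O2. At the FDR alone, 1 rose and 1 fell in IPO13+/+ cells (14.3%, against 25.3% of all tested genes). In IPO13-/- cells 1 rose and none fell (7.14%, against 29.4%). The median log2 fold changes of the list were 0 and 0.12. The gene that rose was *Col1a1*, a collagen gene, by 0.97 (edgeR FDR = 5.4e-07) and 0.64 (edgeR FDR = 0.0066) on the log2 scale. Whether such cells were present was not tested, nor was their part in the HOX values.

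*Hoxc13*, a group 13 gene known for its role in hair and nail keratins, was the most abundant HOX transcript (chromosome 15, 102921103 to 102928814, plus strand, ENSMUSG00000001655). Untreated IPO13+/+ libraries held 143 and 149 counts and treated ones 357 and 334. Untreated IPO13-/- libraries held 141 and 95 and treated ones 340 and 333. All 4 treated libraries lay above all 4 untreated ones, with no overlap. The level went from 2.13 ± 0.0031 to 5.04 ± 0.293 CPM in IPO13+/+ cells, and the log2 fold change was 1.24 (standard error 0.10, edgeR FDR = 2.3e-10). IPO13-/- cells went from 1.70 ± 0.235 to 5.32 ± 0.0935 CPM, and the log2 fold change was 1.64 (standard error 0.11, edgeR FDR = 1.9e-12). The difference between these responses was 0.39 (standard error 0.15, edgeR interaction FDR = 0.20). The untreated genotypes differed by -0.32 on the log2 scale (edgeR FDR = 0.049), below the fold limit and close to the FDR limit, and leaving out 1 library at a time gave an FDR of 0.039 to 0.37. The treated genotypes were 0.08 apart (edgeR FDR = 0.55).

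*Hoxb9*, a thoracic patterning gene (chromosome 11, 96271457 to 96276595, plus strand, ENSMUSG00000020875), had 51 and 52 counts without and 116 and 108 with H2O2 in IPO13+/+ cells. The IPO13-/- libraries held 55 and 48 untreated and 83 and 82 treated. The untreated libraries of the genotypes overlapped, and the treated IPO13-/- libraries lay between these and the treated IPO13+/+ libraries. The level was 0.751 ± 0.0126, 1.63 ± 0.101, 0.750 ± 0.0332 and 1.30 ± 0.0309 CPM in the order untreated and treated IPO13+/+, untreated and treated IPO13-/-. The log2 fold change with H2O2 was 1.12 (standard error 0.16, edgeR FDR = 3.0e-06) in IPO13+/+ cells and 0.80 (standard error 0.17, edgeR FDR = 0.00046) in IPO13-/- cells, where it passed the FDR and missed the fold limit. A call in one genotype and not the other does not show a different response here. The difference was -0.32 (standard error 0.23) with an interaction FDR of 0.61, and the treated genotypes differed by -0.33 (edgeR FDR = 0.073).

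*Hoxd13*, a limb and digit patterning gene (chromosome 2, 74668310 to 74671599, plus strand, ENSMUSG00000001819), went the other way. IPO13+/+ libraries had 30 and 53 counts untreated and 23 and 38 treated, and these groups overlapped. IPO13-/- libraries had 77 and 61 counts untreated and 36 and 32 treated, with no overlap. The log2 fold change was -0.90 (standard error 0.23, edgeR FDR = 0.0038) in IPO13-/- and -0.44 (standard error 0.26, edgeR FDR = 0.26) in IPO13+/+ cells. The IPO13+/+ value depended on single libraries, since leaving out 1 at a time gave -0.84 to -0.01 (FDR of 0.04 to 1, the lowest without replicate 1 of untreated cells). The difference between the responses was -0.45 (standard error 0.36) with an interaction FDR of 0.62, and -0.89 to -0.06 with 1 library left out. Without 1 of the 4 IPO13-/- libraries at a time, the FDR of the fall was 0.024 to 0.09, and it was 0.05 with DESeq2 and 0.065 with DESeq2 without independent filtering.

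No difference between the stress responses of the genotypes was called for any of the 36 HOX genes with edgeR or limma-voom. With edgeR, 2.71% of all tested genes were called. At an unadjusted edgeR p below 0.05 there were 2 HOX genes, *Hoxc13* and *Hoxd1*. DESeq2 gave no interaction FDR to 34 of the 36, so it could not call these. Without independent filtering every one of the 36 had a DESeq2 FDR, and none was called.

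**Figure D3:**
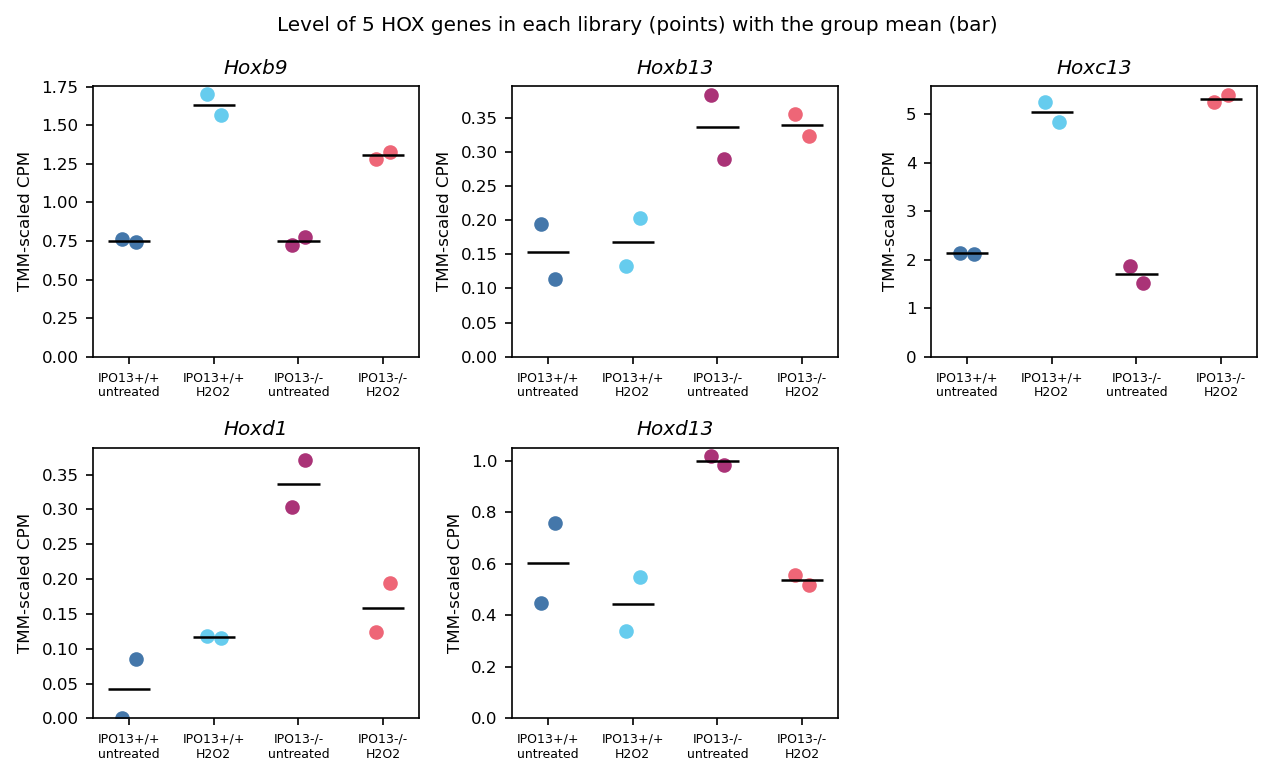
TMM-scaled CPM of the 5 HOX genes below an FDR of 0.05 in at least 1 comparison (vertical axes, each from 0) in the 4 groups (horizontal axis). Points are libraries and bars are means of 2 libraries. *Hoxc13* and *Hoxb9* stand higher in treated cells of both genotypes, *Hoxb13* stands higher in IPO13-/- cells with and without treatment, and *Hoxd1* and *Hoxd13* stand highest in untreated IPO13-/- cells.

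Loss of IPO13 went with higher *Hoxb13* in untreated and in treated cells, and with higher *Hoxd1* in untreated cells. Between untreated cells 2 of 36 HOX genes (5.56%) were called, both higher in IPO13-/- cells, where 4.71% of all tested genes were called and 2.86% were called higher. Between treated cells 1 of 36 (2.78%) was called, where 4.56% of all tested genes were called and 2.58% were called higher. Without the fold limit, *Hoxd13* was higher and *Hoxc13* lower in untreated IPO13-/- cells, which made 4 of 36 (11.1%) against 38.2% of all tested genes, and in treated cells the FDR alone gave *Hoxb13* again (2.78%) against 36.6%. Depth limits these shares too. The median log2 difference of the 36 genes was 0.42 between untreated and 0.04 between treated cells, and 0 over all tested genes in both.

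*Hoxb13*, a posterior gene expressed in tail bud and prostate (chromosome 11, 96194316 to 96197447, plus strand, ENSMUSG00000049604), had 13 and 8 counts without and 9 and 14 with H2O2 in IPO13+/+ cells. Those of IPO13-/- cells held 29 and 18 untreated and 23 and 20 treated. All 4 IPO13-/- libraries were above all 4 IPO13+/+ libraries, by a few counts at the closest. The log2 difference was 1.14 (standard error 0.38, edgeR FDR = 0.017) between untreated and 1.01 (standard error 0.38, edgeR FDR = 0.036) between treated cells. These calls rested on single libraries. Between untreated cells the call was lost without replicate 2 of IPO13+/+ (0.81, edgeR FDR = 0.17) or replicate 1 of IPO13-/- (0.93, edgeR FDR = 0.18). Between treated cells it was lost without replicate 1 of IPO13+/+ (0.74, edgeR FDR = 0.25) or either IPO13-/- replicate (0.94 and 1.07, edgeR FDR = 0.15 and 0.081), and it was lost with DESeq2 in both comparisons (FDR = 0.12 and 0.18).

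*Hoxd1*, the group 1 gene of Hoxd (chromosome 2, 74762980 to 74765142, plus strand, ENSMUSG00000042448), had 0 and 6 counts without and 8 and 8 with H2O2 in IPO13+/+ cells. It reached 23 and 23 counts in untreated IPO13-/- libraries and 8 and 12 in treated ones. The untreated IPO13-/- libraries stood above all others, and the untreated IPO13+/+ libraries stood below all others. The log2 difference between untreated genotypes was 2.88 (standard error 0.58, edgeR FDR = 0.00022), and the size depended on 1 library. It was 1.94 without replicate 1 of untreated IPO13+/+ cells, the library at 0, and 7.49 without replicate 2, a value with no count left in that group that depends on the prior count of the fit. The log2 fold change with H2O2 was 1.38 (standard error 0.75, edgeR FDR = 0.20) in IPO13+/+ cells. It was 0.44 (FDR = 0.73) without the library at 0 and 5.99 (FDR = 0.01) without replicate 2, again with no count left in the untreated group. In IPO13-/- cells it was -1.07 (standard error 0.44, edgeR FDR = 0.071). This fall passed in a fit of only the groups compared (FDR = 0.029) and in a fit blocked on replicate number (-1.09, FDR = 0.044). The treated genotypes were 0.43 apart (standard error 0.56, edgeR FDR = 0.60).

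*Hoxd13* was 0.73 higher on the log2 scale in untreated IPO13-/- cells (standard error 0.22, edgeR FDR = 0.0096), and 0.27 higher in treated cells (standard error 0.28, edgeR FDR = 0.51), where the libraries overlapped. Without replicate 2 of untreated IPO13+/+ cells, the higher of the pair, the first value was 1.16 and passed the fold limit (edgeR FDR = 0.0008). The lowest value with 1 library left out was 0.40, without replicate 1 of the same group, which also had the highest FDR, 0.20. With DESeq2 the FDR was 0.1, and 0.12 without independent filtering.

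**Figure D4:**
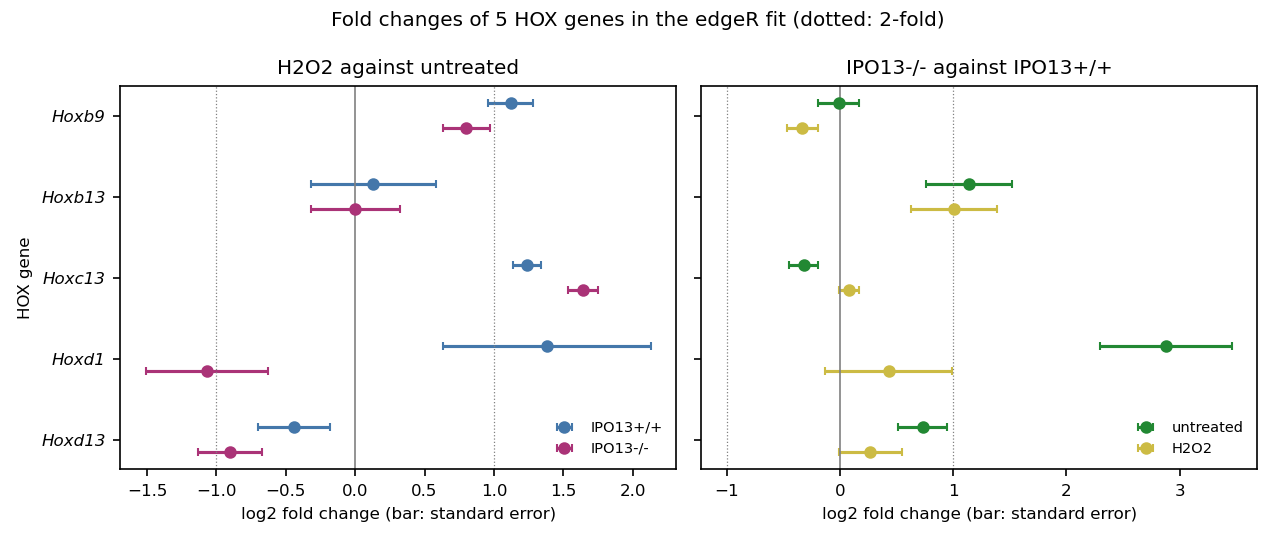
Log2 fold changes of the same 5 HOX genes (horizontal axis) with H2O2 in each genotype (left) and between the genotypes in each condition (right). Points are edgeR estimates, bars are standard errors and dotted lines mark a 2-fold change. *Hoxc13* and *Hoxb9* lie right of 0 with H2O2 in both genotypes, and *Hoxb13* lies right of 0 between the genotypes in both conditions.

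The remaining 33 HOX genes passed no test at an FDR of 0.05 in any comparison, and 2 of them could not be tested because they had no counts. Together they held 19.9% of the counts of the 38 genes, with 85 to 123 counts per library for all 33. Their sum was 1.35 ± 0.0310 and 1.25 ± 0.0346 CPM in untreated and treated IPO13+/+ cells and 1.67 ± 0.0703 and 1.35 ± 0.0325 CPM in untreated and treated IPO13-/- cells. The untreated IPO13-/- libraries were thus the highest for this remainder as well, by less than 1 CPM.

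Of these, *Hoxc4*, a cervical patterning gene at the 3′ end of Hoxc, had the most counts. It had 21, 24, 15 and 18 in the untreated and treated IPO13+/+ libraries and 15, 19, 17 and 12 in the untreated and treated IPO13-/- libraries. Its log2 fold change with H2O2 was -0.44 in IPO13+/+ (edgeR FDR = 0.40) and -0.11 in IPO13-/- cells (edgeR FDR = 0.89), so no change was detectable at this depth.

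*Hoxa10*, known for its role in the uterus and lumbar axis, had 11, 11, 5 and 4 counts in IPO13+/+ and 11, 18, 11 and 9 counts in IPO13-/- libraries in the same order. The treated IPO13+/+ libraries were the lowest of the 8. The log2 fold change with H2O2 in IPO13+/+ cells was -1.27 (edgeR FDR = 0.12), and the difference between treated genotypes was 1.24 (edgeR FDR = 0.11). Both missed the threshold.

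*Hoxd8* had 6, 1, 1 and 3 counts in IPO13+/+ and 10, 9, 5 and 3 in IPO13-/- libraries. Its highest counts were those of the untreated IPO13-/- libraries, as for *Hoxd1* and *Hoxd13*, and its log2 difference between untreated genotypes was 1.40 (standard error 0.70, edgeR FDR = 0.12). *Hoxa5* had 0 and 0 counts in untreated IPO13+/+ libraries, 2 and 1 in treated ones, and 2, 4, 5 and 5 in IPO13-/- libraries. Since 1 group was at 0 and the others stood near the floor of 3 counts, no fold is given for it. *Hoxa7*, *Hoxa11*, *Hoxb8* and *Hoxc12*, the other genes among the 3 highest of their clusters, had 3 to 12, 2 to 9, 2 to 7 and 2 to 9 counts per library and passed no test.

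The genes around *Hoxb9* were examined because it and *Hoxb13* lie 74.0 kb apart at the 5′ end of Hoxb and differed in their response to H2O2. The long non-coding RNA *Gm53* lies between them, 53.7 kb from *Hoxb13* and 6.59 kb from *Hoxb9*. IPO13+/+ libraries held 26 and 46 counts untreated and 68 and 66 treated, and IPO13-/- libraries held 45 and 42 untreated and 70 and 65 treated. All treated libraries lay above all untreated ones, as for *Hoxb9*. The log2 fold change with H2O2 was 0.89 (standard error 0.21, edgeR FDR = 0.0021) in IPO13+/+ and 0.75 (standard error 0.20, edgeR FDR = 0.0053) in IPO13-/- cells. *Ttll6*, a tubulin glutamylase gene 28.9 kb beyond *Hoxb13*, rose by 1.24 (edgeR FDR = 1.8e-08) and 1.21 (edgeR FDR = 7.4e-07). *Hoxb13*, which lies between *Ttll6* and *Gm53*, had log2 fold changes of 0.13 (standard error 0.45) and 0.00 (standard error 0.32), and *Calcoco2*, 21.8 kb beyond *Ttll6*, had -0.05 and -0.08.

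*Mir196a-1*, 6.19 kb from *Hoxb9*, gives rise to miR-196a-5p, a microRNA known to target HOX transcripts. Its mature form is shown with the seed, bases 2 to 8, in capitals, beside that of *Mir196b* in Hoxa, which has the same seed (RefSeq, GRCm38.p6).
miR-196a-5p: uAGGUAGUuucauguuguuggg
miR-196b-5p: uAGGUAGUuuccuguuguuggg
The *Mir196a-1* row held 3 to 11 counts per library and passed no test. The rows of *Mir196a-2*, *Mir196b*, *Mir10a*, *Mir10b* and *Mir615* were at 0 in every library. The libraries were made with a kit for mRNA, so these rows do not measure mature microRNAs. *Hotair*, the long non-coding RNA of Hoxc, was also at 0 in all 8 libraries. At the 5′ end of Hoxa, *Evx1*, a homeobox gene 52.6 kb from *Hoxa13*, fell by 0.41 (edgeR FDR = 0.027) in IPO13+/+ and by 0.48 (edgeR FDR = 0.0057) in IPO13-/- cells on the log2 scale with H2O2. Its antisense RNA *Evx1os*, with 8 to 24 counts per library, fell by 1.06 in IPO13+/+ cells (edgeR FDR = 0.044) and had a log2 fold change of -0.52 in IPO13-/- cells (edgeR FDR = 0.29). The genes overlap each other, and their reads cannot be told apart without the strand.

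**Figure D5:**
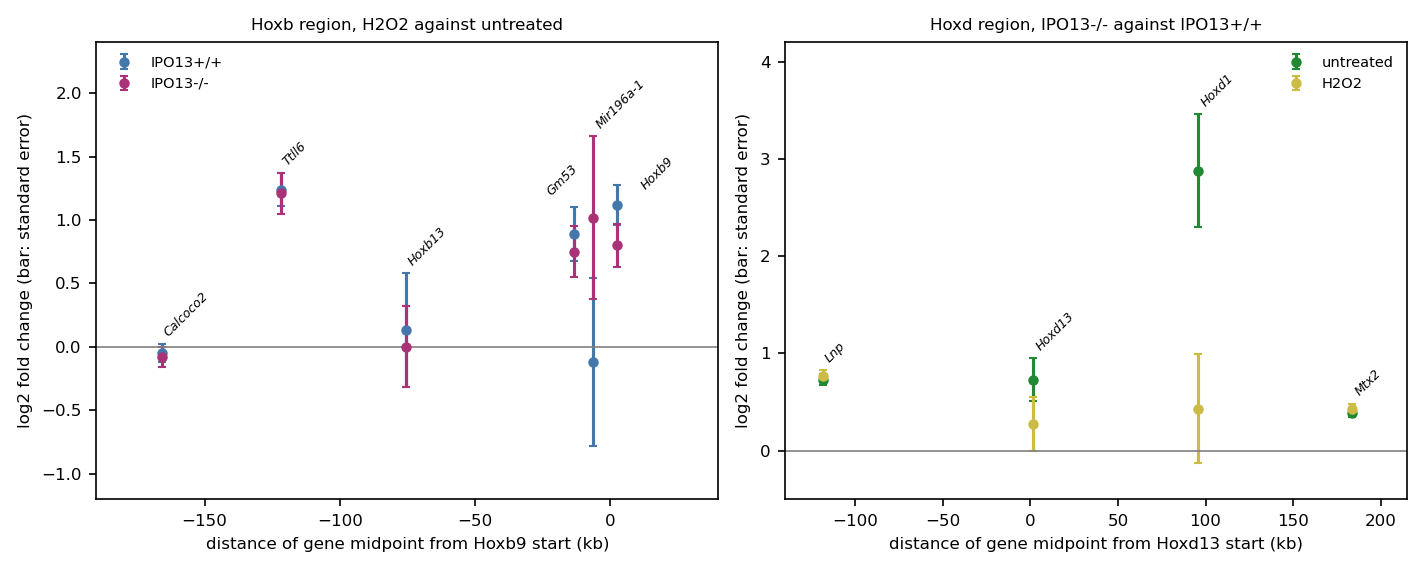
Log2 fold change (vertical axis, bars are standard errors) against distance of the gene midpoint in kb. The left panel shows genes around *Hoxb9* with H2O2 in each genotype and the right panel genes around *Hoxd13* between the genotypes, for genes with at least 40 counts in all within 200 kb. *Ttll6*, *Gm53* and *Hoxb9* lie above 0 and *Hoxb13* near 0 on the left, and all 4 genes lie above 0 on the right.

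The Hoxd values stand beside a shift in the median of the genes of chromosome 2. How this shift was spread along the chromosome was not examined. Over 884 expressed genes of chromosome 2 the median log2 difference between the genotypes was 0.27 in untreated and 0.29 in treated cells, where genes on the other chromosomes had medians of -0.04 and -0.01. The genes on both sides of Hoxd were higher in IPO13-/- cells in both conditions. *Lnp*, 88.9 kb beyond *Hoxd13*, had 1772 to 1970 counts in the 4 IPO13+/+ libraries and 2794 to 3437 in the 4 IPO13-/- libraries, a log2 difference of 0.73 in untreated (edgeR FDR = 3.5e-11) and 0.77 in treated cells (edgeR FDR = 1.2e-11). *Mtx2*, 60.7 kb beyond *Hoxd1*, differed by 0.39 (edgeR FDR = 6.7e-08) and 0.43 (edgeR FDR = 1.3e-08). The part of this shift in the Hoxd values was not tested. The chromosomes of Hoxa, Hoxb and Hoxc had medians of -0.05, -0.04 and -0.04 between untreated cells, so no such shift stood beside *Hoxb13*. The median change with H2O2 on chromosome 2 was -0.02 for IPO13+/+ and 0.01 for IPO13-/- cells.

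The promoters of *Hoxd13* and *Hoxd1* are shown because both genes were highest in untreated IPO13-/- cells. RefSeq promoters (GRCm38.p6, 300 bases) were matched for 22 of the 38 HOX genes. For *Hoxd1* the window ran from 250 bases before to 50 after the gene start given above. For *Hoxd13* it ended before the start given above, 74668310. Among the 5 genes above they were those of *Hoxd13* and *Hoxd1*, both on the plus strand. Capitals mark GC boxes, searched as GGGCGG on both strands, with overlapping matches counted.
Hoxd13, chr2:74667975-74668274: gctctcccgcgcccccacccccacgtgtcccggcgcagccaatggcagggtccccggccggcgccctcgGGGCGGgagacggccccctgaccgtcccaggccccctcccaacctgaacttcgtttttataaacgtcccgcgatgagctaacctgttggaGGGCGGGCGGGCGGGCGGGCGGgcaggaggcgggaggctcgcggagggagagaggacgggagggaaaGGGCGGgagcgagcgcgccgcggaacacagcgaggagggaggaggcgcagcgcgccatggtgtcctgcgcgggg
Hoxd1, chr2:74762730-74763029: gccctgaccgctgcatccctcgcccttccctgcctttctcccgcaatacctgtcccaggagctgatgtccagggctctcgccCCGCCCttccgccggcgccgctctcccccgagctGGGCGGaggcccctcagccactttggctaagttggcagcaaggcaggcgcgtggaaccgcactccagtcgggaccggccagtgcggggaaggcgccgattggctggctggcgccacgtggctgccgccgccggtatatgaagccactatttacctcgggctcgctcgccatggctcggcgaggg
The *Hoxd13* promoter held 7 GC boxes and 37 CG dinucleotides at a GC content of 74.3%, and the *Hoxd1* promoter held 2 GC boxes and 29 CG dinucleotides at 69.7%. Of all 32851 promoters of the same length, 35.7% held a GC box, and the medians were 7 CG dinucleotides and 52.7% GC. Both promoters were thus richer in CG than the median promoter. This was not particular to them. The *Hoxa13* promoter held 6 GC boxes and 45 CG dinucleotides. That of *Hoxa6*, a gene at 0 counts in every library, held 5 and 26. Below the median were *Hoxa9* and *Hoxd4* (4 CG dinucleotides each), *Hoxd8* (6) and 1 promoter of *Hoxd11* (4). A match of letters is a description and not a binding site.

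The partners and regulators of HOX genes were compared in the same fits. The members of these lists had been picked with earlier results of these data known. HOX cofactors of the Pbx, Meis and Pknox families were well expressed, at 85.4 to 97.4 CPM in sum, and none of the 9 was called in any comparison with edgeR. At the FDR alone, 2 of 9 fell with H2O2 in IPO13+/+ cells (22.2%, against 25.3% of all tested genes), and 3 fell and 1 rose in IPO13-/- cells (44.4%, against 29.4%). *Meis2* fell by 0.75 on the log2 scale in IPO13-/- cells (edgeR FDR = 4.6e-05) and *Pknox2* was 0.79 lower on that scale in untreated IPO13-/- cells, a log2 difference of -0.79 (edgeR FDR = 3.6e-08). Their median log2 values lay between -0.24 and 0.03 over the comparisons of treatment and genotype, against 0 over all genes.

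Polycomb genes, whose products hold HOX clusters silent, changed little in size. None of 33 was called by 2-fold in the comparisons of treatment or genotype. At the FDR alone, 17 fell and 5 rose with H2O2 in IPO13+/+ cells (66.7%, against 25.3% of all tested genes), and 14 fell and 5 rose in IPO13-/- cells (57.6%, against 29.4%). Between the genotypes 7 were higher and 7 lower in IPO13-/- cells in each condition (42.4%, against 38.2% untreated and 36.6% treated). The median log2 fold change was -0.12 with H2O2 in both genotypes, against 0 over all genes. Of 14 genes of the MLL and H3K27 demethylase group, which oppose Polycomb, none was called, and 7 fell and none rose with H2O2 at the FDR alone in each genotype, 7 of 14 against the same 25.3% and 29.4% of all tested genes.

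Caudal and other ParaHox genes, relatives of HOX genes of which the Cdx factors act on HOX clusters, were low, at 3.40 to 4.91 CPM in sum. None of 6 was called. At the FDR alone, 1 fell with H2O2 in IPO13+/+ cells (16.7%, against 25.3% of all tested genes) and 2 in IPO13-/- cells (33.3%, against 29.4%). In IPO13-/- cells 2 were higher and 1 lower untreated (50%, against 38.2%), and 1 was higher and 1 lower treated (33.3%, against 36.6%). *Cdx1* fell by 0.63 in IPO13+/+ (edgeR FDR = 0.00015) and by 0.59 in IPO13-/- cells (edgeR FDR = 0.0019) with H2O2 on the log2 scale, and it was lower in IPO13-/- cells both untreated (-0.67, edgeR FDR = 3.9e-05) and treated (-0.63, edgeR FDR = 0.00075). *Cdx4* had 21 and 25 counts untreated and 27 and 32 treated in IPO13+/+ cells, and 56 and 36 untreated and 23 and 26 treated in IPO13-/- cells. It was 0.99 higher in untreated IPO13-/- cells (edgeR FDR = 0.0023) and fell by 0.78 with H2O2 in those cells (edgeR FDR = 0.017). Its highest libraries were thus the same group as for *Hoxd1* and *Hoxd13*. This was not shared by *Cdx2*, which was highest in treated IPO13-/- libraries (24 and 24 counts). There *Cdx2* was 0.89 above treated IPO13+/+ cells on the log2 scale (edgeR FDR = 0.036).

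Among 12 genes listed as factors that act before HOX genes in the embryo, *Wnt3* had the largest change. Its counts were 15 and 20 untreated and 151 and 169 treated in IPO13+/+ cells, and 17 and 19 untreated and 127 and 166 treated in IPO13-/- cells. The log2 fold change was 3.18 (edgeR FDR = 3.4e-12) and 3.14 (edgeR FDR = 4.6e-12). Over the 12 genes, 2 were called with H2O2 in IPO13+/+ cells (16.7%, against 2.9% of all tested genes). They were *Wnt3* and *Wnt3a*, the latter at 1.05 (edgeR FDR = 0.00041). In IPO13-/- cells 3 were called (25%, against 2.89%). *Wnt3* was higher, and *Nkx1-2* (-1.28, edgeR FDR = 0.034) and *Mixl1* (-1.11, edgeR FDR = 0.0072) were lower. At the FDR alone, 2 rose and 3 fell in IPO13+/+ cells (41.7%, against 25.3% of all tested genes). In IPO13-/- cells 2 rose and 5 fell (58.3%, against 29.4%). The 3 that fell in IPO13+/+ cells were *Gbx2*, *Lin28a* and *Sox2*, which were also among the 5. Of these, *Lin28a* and *Sox2* are also among the 12 pluripotency markers, so these shares are not those of posterior genes alone. The median log2 fold changes were -0.13 and -0.2, against 0 over all genes. Between untreated genotypes 3 were called, all higher in IPO13-/- cells (25%, against 4.71% of all tested genes). They were *T* (1.25, edgeR FDR = 0.0025), *Nkx1-2* (1.13, edgeR FDR = 0.039) and *Wnt3a* (1.03, edgeR FDR = 0.00028). Between treated ones *T* alone was called higher (1.11, edgeR FDR = 0.025), 8.33% of the list against 4.56%.

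Retinoic acid genes were compared because several HOX genes are known targets of this signal. Of 19 genes, 2 (10.5%, against 4.71% of all tested genes) were called lower in untreated IPO13-/- cells, *Aldh1a3*, which makes retinoic acid (-2.02, edgeR FDR = 1.1e-10), and *Dhrs3*, a retinal reductase (-1.11, edgeR FDR = 3.3e-05), and none was called higher. At the FDR alone 7 were higher and 5 lower (63.2%, against 38.2%), and the median was 0.33 against 0 over all genes. *Rarb*, a known direct target, had 7 to 19 counts per library and passed no test. *Cyp26a1*, another known target, was 0.76 higher on the log2 scale in untreated IPO13-/- cells (edgeR FDR = 0.0046) and fell by 0.80 with H2O2 in them (edgeR FDR = 0.0057). With H2O2, *Cyp26b1*, which breaks retinoic acid down, rose by 1.89 in IPO13+/+ cells (edgeR FDR = 1.0e-05) and by 0.83 in IPO13-/- cells (edgeR FDR = 0.044). Marker genes of other cell types also differed between the genotypes. Of 10 neural markers 1 was called higher between untreated cells (10%, against 4.71% of all tested genes). Between treated cells 1 was called higher and 1 lower (20%, against 4.56%). The one called higher was *Pax6*, at 1.40 on the log2 scale in untreated cells (edgeR FDR = 1.3e-10) and 1.13 in treated cells (edgeR FDR = 2.4e-06). Of 9 mesoderm markers 1 was called higher in each condition (11.1%, against the same shares of all genes), namely *T*. Of 14 fibroblast markers 2 were called in untreated (14.3%) and 3 in treated cells (21.4%). *Col6a1* was called higher (2.05 untreated, edgeR FDR = 4.9e-05, and 1.07 treated, edgeR FDR = 0.0099). *Col1a1* was called lower (-1.07, edgeR FDR = 5.1e-06, and -1.41, edgeR FDR = 1.8e-09). *Twist2*, with 0 to 9 counts per library, was called lower in treated cells. Of 10 extraembryonic markers 1 was called lower in untreated cells (10%), *Krt8* (-1.25, edgeR FDR = 1.6e-12), and none was called in treated cells. At the FDR alone, 1 was higher and 4 lower in untreated cells (50%, against 38.2% of all tested genes). In treated cells 2 were higher and 4 lower (60%, against 36.6%). The summed extraembryonic level was 79.0 to 90.5 CPM in IPO13+/+ and 53.6 to 56.4 CPM in IPO13-/- libraries. With H2O2, *Gsc* of the endoderm list was called lower in both genotypes (-1.05, edgeR FDR = 0.00045, and -1.03, edgeR FDR = 0.00061), and *Pax6* in IPO13-/- cells (-1.26, edgeR FDR = 1.3e-09). Whether cells of these types were present was not tested, nor was their part in the HOX values.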

How the data were processed

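The authors mapped reads to mm10, and the submitters' processing notes name bcl2fastq, STAR 2.3.1, HTSeq and limma without further detail. The deposited tables hold raw counts per gene symbol for each library, and the deposited CPM values, which divide each count by the library total, differed from the counts so scaled by at most 0.0005 CPM and were used only for that check. Groups and replicate numbers were taken from the labels.

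Counts were fitted in R 4.3.3 with edgeR 4.0.16 (quasi-likelihood, TMM factors, all 8 libraries, and the 19424 genes counted at least once somewhere). FDR is the Benjamini-Hochberg value over all tested genes, and the interaction was called at FDR alone. Standard errors were obtained from each log2 fold change and its F statistic. Levels are CPM after TMM scaling. Alternatives used limma-voom (limma 3.58.1), DESeq2 1.42.0, other scaling and filters, a replicate block and libraries left out. The procedure was tested on simulated data.

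1 HOX gene is not reported here. HOX genes and lists were chosen with earlier results of these data known. Named HOX genes are those below an FDR of 0.05 in a comparison and the 3 most abundant of each cluster. *Hoxa5* and the genes beside the clusters were picked after their values were seen. From the lists, called genes are named, at most 4 per comparison. Other list members given with values were chosen after these were seen. Positions were taken from GENCODE M21 (GRCm38), which held 22952 of 23418 distinct symbols.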

Additional observations from a re-analysis of the deposited data

Results flagged for a closer look

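*Hoxd1* had log2 fold changes of opposite sign with H2O2 in the genotypes, with both libraries of each group on the same side. Neither passed in the main fit, at 1.38 (edgeR FDR = 0.20) in IPO13+/+ and -1.07 (edgeR FDR = 0.071) in IPO13-/- cells. The gene had 0 and 6 counts untreated and 8 and 8 treated in IPO13+/+ cells. In IPO13-/- cells it had 23 and 23 untreated and 8 and 12 treated. The difference between the responses was -2.45 on the log2 scale (standard error 0.87). The interaction test did not pass (edgeR FDR = 0.14). With 1 library left out it ranged from -7.06 to -1.51 (FDR of 0.0099 to 0.43), the smallest without replicate 1 of untreated IPO13+/+ cells. Without replicate 2 of untreated IPO13+/+ cells it was -7.06 (edgeR FDR = 0.0099), a fit in which that group holds no count, so the size depends on the prior count.

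Of 165 tested genes listed with the HOX genes, 9 (5.45%, against 2.71% of all tested genes) differed between the genotypes in their response to H2O2 by the interaction test of edgeR. The differences, IPO13-/- minus IPO13+/+ on the log2 scale, were 0.85 for *Aldh1a3* (FDR = 0.045), 0.47 for *Thy1*, 0.36 for *Tbx3*, 0.28 for the Polycomb gene *Kdm2b* (FDR = 0.0056), 0.25 for *Snx10* from the list of genes flanking the clusters (FDR = 0.035), 0.24 for *Tubb3*, 0.22 for *Zfp42*, 0.21 for *Esrrb* and -0.38 for *Olig2*. Groups of 2 libraries are too small to test for a sample that stands apart.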

How the results depend on the processing

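The direction of every called HOX value was kept under all alternatives run, and no call reversed. Named genes kept their side of the threshold in 555 of 563 values under other settings. Most of these values were not called in the main fit, so this share says little about the calls themselves. A further 8 values, of the other sign and called in neither fit, are not in this total. The *Hoxb13* calls rested on single libraries, as given above. Counts of called HOX genes moved as follows. Between treated genotypes 0 were called with the relative log expression factors of edgeR, with DESeq2 and with DESeq2 without independent filtering, an alternative added after seeing the data, against 1, *Hoxb13*, with TMM factors, where 3 were below an unadjusted p of 0.05. With limma-voom 2 were called there, which added *Hoxa5*. Between untreated genotypes 4 were called with limma-voom, which added *Hoxa5* and *Hoxd8*, 3 with a filter of at least 10 counts over all libraries, which added *Hoxa5*, and 1, *Hoxd1*, with both DESeq2 fits. With H2O2 in IPO13-/- cells 2 were called in a fit of only the groups compared, which added *Hoxd1* (-1.07, FDR = 0.029).

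With the replicate number as a block, 2 were called with H2O2 in IPO13-/- cells, again with *Hoxd1* (-1.09, FDR = 0.044), and the block changed no other HOX call. Over all genes the block raised the interaction calls from 527 to 1291. The numbers were not taken to pair the samples. Same-numbered libraries deviated together over 10235 genes in 3 of the 6 pairs of groups, with correlations of 0.25 to 0.54, and not in the other 3, those with treated IPO13+/+ cells, with -0.06 to 0. The cause was not tested.

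With 1 library left out at a time, the called HOX genes numbered 2 to 3 with H2O2 in IPO13+/+ cells, 1 in IPO13-/- cells, 1 to 3 between untreated and 0 to 1 between treated genotypes, and 0 to 1 in the interaction. In such fits the lone library is assumed to vary like the other groups. Replicate 2 of untreated IPO13+/+ cells made the difference in the interaction. *Hoxd8* was called between untreated genotypes without replicate 1 of IPO13+/+ cells (3.11, FDR = 0.031). Interaction calls over all genes were 255 with limma-voom, 287 with DESeq2 and 349 with a stricter filter, and with 1 library left out they ranged from 73, without replicate 1 of untreated IPO13-/- cells, to 1157, without replicate 1 of untreated IPO13+/+ cells. Depth limits most of the family, since 11 of 38 HOX genes stayed below 3 counts in every library and only 7 passed the stricter filter. DESeq2 gave no FDR to 22 to 34 of the 36 tested, the most in the interaction.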
